A study of Drosophila melanogaster with 2 samples.

Results

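The genes described here are 7 members of the insulin and growth signalling pathway of Drosophila melanogaster, namely InR, chico, S6k, Tsc1, foxo, Thor and Lk6. They were chosen by name and not by a rule on any measured value, but earlier results of these data were known when they were chosen. They are 7 of the 13968 protein-coding genes annotated on the chromosome arms. Each gene was given a window made of its body and the 2 kb upstream of its outermost annotated start site (Ensembl 115 annotation, dm6 coordinates). Every peak with its summit in such a window was collected.

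The study mapped where the GATA factor GATAe lies on chromatin, by chromatin immunoprecipitation with sequencing (ChIP-seq), in which DNA fragments bound by a protein are recovered with an antibody and sequenced. The samples form 1 group of 2 biological replicates, whole embryos 0 to 24 h old from transgenic flies that carry GATAe fused to enhanced green fluorescent protein (eGFP). An antibody to GFP pulled down the fusion protein after the chromatin had been sheared by sonication, and the labels name no promoter for the fusion. There was no second genotype, tissue or age, so the comparisons possible were between replicates, between peak lists, between member genes, and between members and all other genes. Whole embryos mix all tissues, and a peak does not tell in which cells the protein was bound. A control experiment named in the labels was not used here.

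Insulin-like peptides bind the receptor InR, and its adaptor chico passes the signal to a phosphoinositide kinase and on to the kinase Akt. Akt keeps the transcription factor foxo out of the nucleus and relieves the block that the Tsc1 complex places on the TOR kinase, which in turn activates the ribosomal protein kinase S6k. When insulin signalling is low, nuclear foxo raises transcription of InR itself, of Thor, which encodes the translation repressor 4E-BP, and of Lk6, a kinase of the translation factor eIF4E. GATAe is a GATA-type zinc finger protein known for its part in forming and maintaining the endoderm and midgut, and GATA factors bind DNA at words built on the 4 bases GATA.

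The authors deposited 4 pairs of peak lists, 1 conservative and 1 pooled pair for the series and 1 pair for each replicate. Each pair has a ranked list of all candidate peaks and a shorter thresholded list. The irreproducible discovery rate (IDR) estimates the share of peaks at that level that would not repeat between 2 sets of reads, and which sets were compared for a replicate's own lists is not stated. It is written as a score, and the thresholded lists hold only peaks with a score of 830 or more, which is an IDR of 1% or less. The signal value of a peak measures its strength, has no stated unit, and was compared only within 1 list, or between the lists of the 2 replicates as a ratio. Read depth is not given in these files, so no counting error can be set beside a signal value, and the replicates are the only measure of error. In 102 cases a peak of the conservative ranked list scored 830 or more and was still absent from the thresholded list. Such peaks are called left out below, and 5 of them were in member windows.

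Of the 7 genes, 3 held at least 1 summit of the conservative thresholded list, which was InR with 3 summits, foxo with 2 and S6k with 2. Over all protein-coding genes the share was 19.0%. Long genes held summits more often, with 12.4% of genes with windows under 5 kb, 23.6% at 5 to 10 kb, 34.4% at 10 to 20 kb and 40.7% at 20 kb or more. InR (51.1 kb), foxo (33.0 kb) and S6k (15.4 kb) are among the longer genes. Tsc1 (6.35 kb) and chico (6.57 kb) are also above the median window of 4.16 kb, and Thor (3.18 kb) is below it. The same 3 genes were occupied in the pooled list, where 17.7% of all genes were, in the replicate 1 list, where 17.5% were, and in the replicate 2 list, where 12.4% were. Lk6, with a window of 15.5 kb, had no thresholded summit in any list and yet held the strongest peak of all 7 genes, a left-out one with a signal value of 412.

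The DNA under most of these peaks is shown first, since it carries words compared below. Shown are the thresholded peaks of InR and S6k, the stronger foxo peak, and the strongest left-out peak of InR and of Lk6. Each sequence is the summit base with the 50 bases to either side, and was read from RefSeq's copy of the dm6 assembly, plus strand, 5′ to 3′. Capitals mark each GATA core, which appears as TATC where it lies on the minus strand. In the Lk6 sequence, which has no such core, capitals mark the word GTAAACA instead.
foxo, 773 bp upstream of the gene, chr3R:14056122-14056222: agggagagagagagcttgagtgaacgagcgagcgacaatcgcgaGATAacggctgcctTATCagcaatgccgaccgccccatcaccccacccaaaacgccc
S6k, intron 1, chr3L:5809778-5809878: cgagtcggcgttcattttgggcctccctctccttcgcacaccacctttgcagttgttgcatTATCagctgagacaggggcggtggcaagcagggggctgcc
S6k, intron 1, weaker peak, chr3L:5809049-5809149: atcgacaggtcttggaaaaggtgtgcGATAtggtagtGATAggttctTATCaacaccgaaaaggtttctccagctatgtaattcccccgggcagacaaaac
InR, intron 3, chr3R:21584696-21584796: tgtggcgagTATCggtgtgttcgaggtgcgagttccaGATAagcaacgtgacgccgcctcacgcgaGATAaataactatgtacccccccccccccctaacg
InR, next to the start of transcript RD, chr3R:21590773-21590873: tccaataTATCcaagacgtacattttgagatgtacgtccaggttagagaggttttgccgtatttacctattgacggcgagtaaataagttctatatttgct
InR, intron 3, weaker peak, chr3R:21587097-21587197: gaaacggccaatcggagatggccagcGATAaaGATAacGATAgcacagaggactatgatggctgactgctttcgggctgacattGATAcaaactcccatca
InR, intron 1, left-out peak, chr3R:21616392-21616492: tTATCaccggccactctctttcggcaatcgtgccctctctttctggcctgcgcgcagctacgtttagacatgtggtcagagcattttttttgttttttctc
Lk6, intron 1, left-out peak, chr3R:11761007-11761107: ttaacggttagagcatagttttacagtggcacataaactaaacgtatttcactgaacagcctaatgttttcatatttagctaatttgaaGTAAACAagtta
A GATA core lay within 50 bp of every one of the 7 thresholded member summits. The longer word WGATAR, where W is A or T and R is A or G, was found at 6 of these 7. The exception was the InR peak next to the start of transcript RD, whose single bare core is 41.5 bp from the summit and whose nearest WGATAR is 57.5 bp away.

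InR, the insulin receptor (FBgn0283499, chr3R:21570248-21619321, minus strand), is the first protein of the pathway and the member with the most summits. It has 4 annotated start sites in 2 clusters, RB and RA at the far end and RC and RD 27.2 and 29.13 kb further into the gene. All 3 thresholded peaks lie near or beyond the inner cluster. The first, chr3R:21584566-21584925, is 5445 bp downstream of the RD start, in intron 3 of the long transcripts, and had a signal value of 149 and rank 573 of 3047 in the conservative list. Its signal value was 72.5 in replicate 1 and 83.3 in replicate 2, with a summit gap of 27 bp, and it was in the thresholded list of both replicates.

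The second InR peak, chr3R:21590643-21591002, is 632 bp upstream of the RD start and inside an intron of the longer transcripts. Its signal value was 133 in the conservative list, 82.8 in replicate 1 and 81.3 in replicate 2. The replicates were thus nearly equal here, with a ratio of 1.02 and a summit gap of 16 bp. The third, chr3R:21586967-21587326, lies between them, 3044 bp downstream of the RD start, at a conservative signal value of 83.1. Replicate 1 gave 49.4 and passed the threshold, and replicate 2 gave 37.6 at an IDR of 1.02%, just above the 1% limit. Replicate 2 had a further thresholded peak near RD, chr3R:21590148-21590463, with a signal value of 46.4. In the conservative ranked list that place scored only 390, with a signal value of 51.8.

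A second set of InR peaks lies by the outer start sites, and all 3 were left out of the thresholded list. The strongest InR peak of the conservative ranked list is among them, by a small margin. It is chr3R:21616262-21616621, in intron 1 and 2594 bp downstream of the RA start, with a conservative signal value of 150 beside 149 for the strongest thresholded InR peak. In each replicate the first and second InR peaks described above had higher signal values than this one. Its signal value was 69.8 in replicate 1 and 77.7 in replicate 2, and it was left out of both of their thresholded lists as well, at IDRs of 0.0122% and 0.00497%. A nearby peak 511 bp downstream of the RA start had a conservative signal value of 61.9. Replicate 1 gave 39.9 at an IDR of 0.639%, and replicate 2 gave 27.4 at an IDR of 37.7%. In the pooled ranked list the IDR of this peak was 2.08%, so it did not pass 1% there. The third, 6108 bp downstream of RA, had 64.6 in the conservative list, 31.4 in replicate 1 and 36.4 in replicate 2. Neither replicate reached the threshold for it alone, at IDRs of 5.41% and 44.9%. The outermost of the kept InR summits and the next kept summit beyond the gene are 149 kb apart, and the 3 left-out summits lie in that gap.

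With the left-out peaks counted, InR held 6 summits of the conservative ranked list. Having 3 or more thresholded summits was seen for 2.04% of all genes and 13.2% of genes with windows of 20 kb or more. With left-out peaks counted, 6 or more were seen for 0.215% of all genes and 2.26% of the long ones. That class starts at 20 kb, whereas the InR window is 51.1 kb, longer than that of 97.7% of all genes. Genes closer to InR in length were not counted apart. A further 2 InR peaks passed an IDR of 5% but not 1%. At chr3R:21609915-21610274, with a conservative signal value of 66.0, replicate 1 had no ranked peak at all. The other, with a signal value of 50.7, has its summit 49 bp from the RC start. The map of peaks by distance from the gene start shows both sets, with only ranked-only peaks between them, the highest at 66.0.

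**Figure D1:**
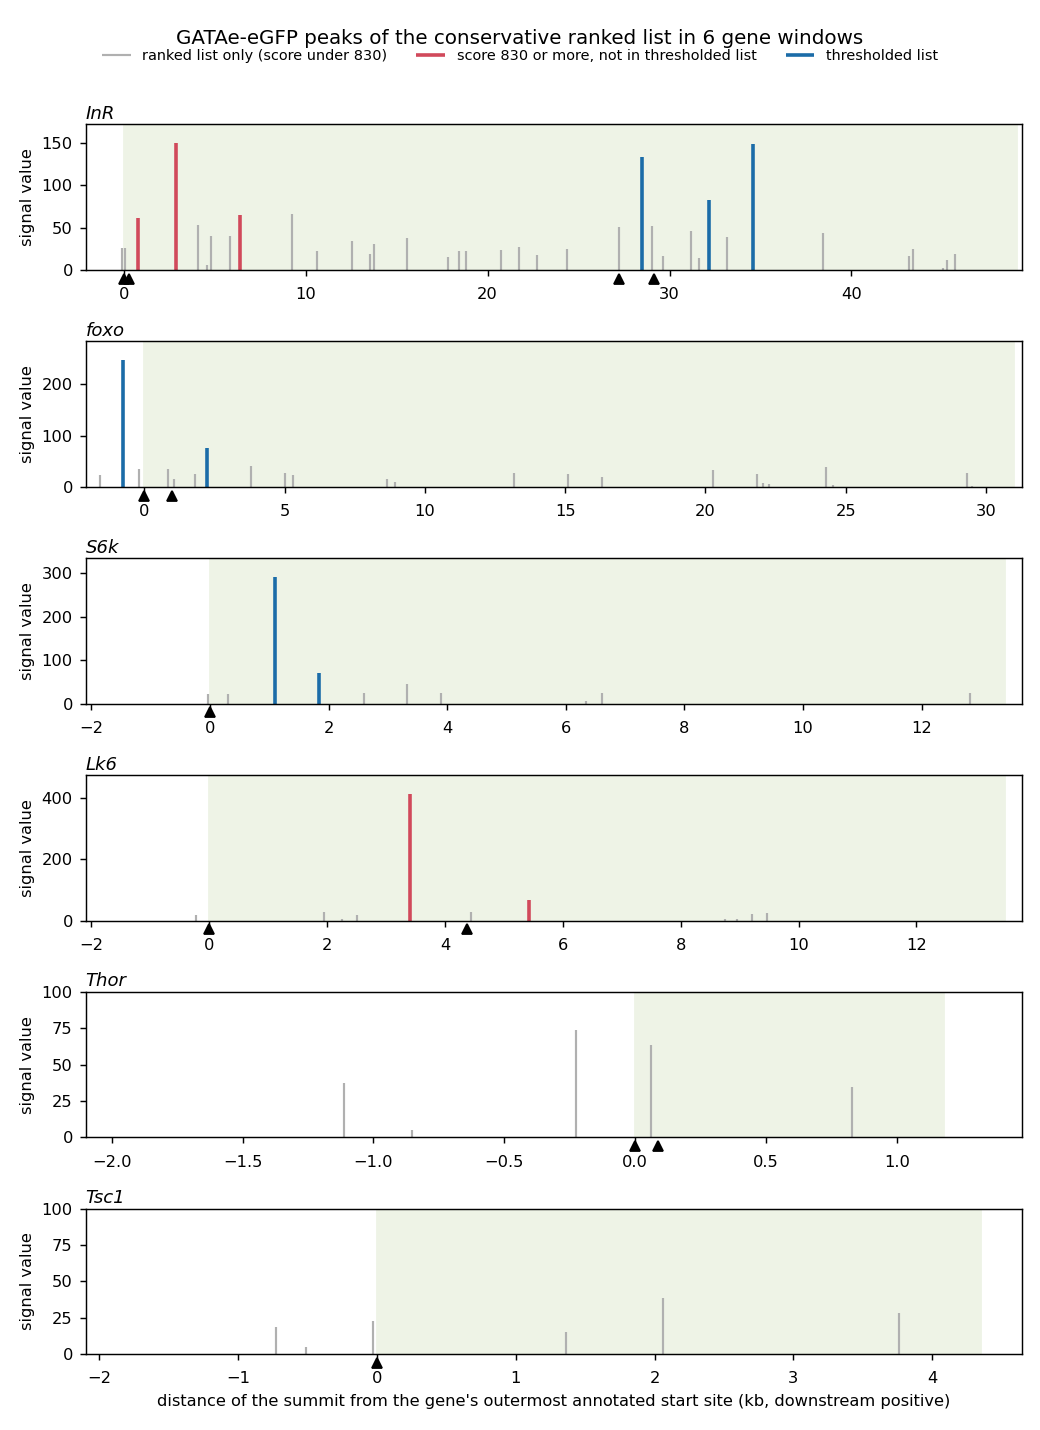
Signal value of every peak of the conservative ranked list (vertical lines) against the distance of its summit from the outermost start site, in kb, for 6 genes; shading marks the gene body, triangles mark annotated start sites, both axes differ between genes, and chico is not drawn since it had no peak. InR has blue thresholded lines at the inner start sites and red left-out lines at the outer ones, foxo and S6k have their tallest line within 2 kb of the gene start, and the tallest line of all is the left-out Lk6 peak at 412.

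chico, the adaptor that couples the receptor to the lipid kinase (FBgn0024248, chr2L:10242512-10247078, minus strand), was the only member with no peak of any kind. Neither series list nor either replicate had even a ranked-only peak in its window of 6.57 kb. No peak in any of the 4 ranked lists was the case for 8.03% of all genes and for 3.74% of genes with windows of 5 to 10 kb. The window is not short of GATA words, with 65 GATA cores and 14 WGATAR, or 2.13 WGATAR per kb beside 1.96 per kb over the chromosome arms. The nearest thresholded summit lies 41443 bp outside the window, nearest to the start of the ribosomal protein gene RpL7. The lists show that no candidate peak was called at chico, not that GATAe was absent.

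S6k, the kinase of ribosomal protein S6 (FBgn0283472, chr3L:5797549-5810931, minus strand), had 1 of the strongest peaks of the list. It lies at chr3L:5809774-5809928, in intron 1 and 1103 bp downstream of the start, and had a signal value of 292 and rank 102 of 3047. Its signal value was 139 in replicate 1 and 143 in replicate 2, with the summit at the same base in both. The peak is 155 bp wide, whereas 89.6% of the list has a width of 360 bp, and the 313 narrower peaks had a median rank of 163. Its only GATA core, a WGATAR on the minus strand, is centred 12.5 bp from the summit.

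The weaker S6k peak, chr3L:5808919-5809278, is in the same intron, 1832 bp from the start, with a conservative signal value of 70.9. Replicate 1 gave a signal value of 28.3, at an IDR of 3.12% and so not thresholded, and replicate 2 gave 53.1, which passed. The ratio of 0.533 was the lowest of any member peak, and the replicate summits are 109 bp apart. It has 3 GATA cores, including a pair of WGATAR on opposite strands whose starts are 10 bp apart, and 1 of these is 1.5 bp from the summit. Both S6k summits also lie in the upstream window of kri (FBgn0035639), which runs the other way from a start 42 bp from that of S6k. The stronger summit is 1145 bp from the kri start and 1103 bp from the S6k start, so the peak cannot be given to 1 of the 2 genes by distance.

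Tsc1, which with its partner gig restrains TOR (FBgn0026317, chr3R:24130307-24134654, plus strand), had no peak near the threshold. Its window held 6 ranked-only peaks, and the strongest had a signal value of 38.3 at rank 8551 of 62931 and an IDR of 37.8%. The strongest in its replicates was 23.3 in replicate 1 and 17.3 in replicate 2. The nearest thresholded summit is 4678 bp beyond the window and nearest to the start of Npc2f, with a signal value of 68.1. With 10 WGATAR in 6.35 kb, or 1.58 per kb, Tsc1 had the lowest density of that word among the 7 genes.

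foxo, the transcription factor that insulin signalling keeps out of the nucleus (FBgn0038197, chr3R:14056945-14087978, plus strand), was marked at its outer start. The peak chr3R:14056128-14056286 is 159 bp wide, lies between genes at 773 bp before the first foxo start, and had a signal value of 247 and rank 178 of 3047. Replicate 1 gave 136 and replicate 2 gave 103, both thresholded, with a summit gap of 6 bp. Its 2 WGATAR words face each other on opposite strands, 14 bp from start to start, and lie 4.5 and 9.5 bp from the summit on either side. The same stretch holds 4 overlapping GAGAG words, the repeat bound by GAGA factor. No other of the 12 thresholded or left-out member peaks lay in intergenic sequence, the other 11 being intronic.

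A second foxo peak, chr3R:14058996-14059355, lies 1257 bp downstream of the second annotated start site, 14057919, in an intron, with a conservative signal value of 75.0. In replicate 1 its value was 38.4 and in replicate 2 50.1, and both passed the threshold. It has 1 WGATAR 37.5 bp from the summit and a further bare core. Of the 23 ranked peaks of foxo, these 2 alone had an IDR of 5% or less. Having 2 or more thresholded summits, as foxo does, was seen for 5.91% of all genes and 22.3% of genes with windows of 20 kb or more, the length class of foxo.

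Thor, the 4E-BP translation repressor (FBgn0261560, chr2L:3478434-3479612, plus strand), fell short of the threshold in every list. Its strongest peak, chr2L:3478030-3478389, is 224 bp upstream of the gene, with a conservative signal value of 73.8 and an IDR of 1.97%. That signal value is close to those of the weaker foxo peak (75.0) and the weaker S6k peak (70.9), which did pass. The value was 35.6 in replicate 1 at an IDR of 1.2%, and 24.2 in replicate 2 at an IDR of 21.9%. The core in its sequence is shown here because it also spells GATAAG, on the minus strand.
Thor, upstream peak, ranked only, chr2L:3478160-3478260: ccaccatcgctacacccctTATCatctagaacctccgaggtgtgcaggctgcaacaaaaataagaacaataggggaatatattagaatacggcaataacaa
Another 3 Thor peaks had an IDR between 1% and 5%. Of these, 2 overlap each other and match the same single peak in each replicate, at conservative signal values of 37.5 and 5.27, so they are not separate places. The remaining peak is in the first exon, with a signal value of 63.5 at an IDR of 1.53%. Its GATA core is 0.5 bp from the summit and it has a GTAAACA word as well. That peak gave 30.1 in replicate 1 and 26.9 in replicate 2, the latter at an IDR of 80.2%. Both peaks at the Thor start thus had the lower signal value in replicate 2, and no Thor peak of that replicate reached an IDR of 5%. In the conservative ranked list at an IDR of 5%, 5 of 7 members were occupied, where 25.9% of all genes were. By window length the share of all genes was 17.9% under 5 kb, 32.4% at 5 to 10 kb, 44.3% at 10 to 20 kb and 50.8% at 20 kb or more. Of the 2 genes beyond InR, foxo and S6k, Thor entered through the looser limit and Lk6 through its left-out peaks, which pass 1% as well.

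Lk6, the kinase of eIF4E (FBgn0017581, chr3R:11750931-11764457, minus strand), held the strongest peak of the 7 genes and no thresholded one. The peak chr3R:11760929-11761155 is 227 bp wide, lies in intron 1 of the long transcript and 978 bp upstream of the start of the short transcript RB, and had a signal value of 412. It ranked 37 of 62931 in the conservative ranked list, with the IDR at its lowest possible value of 0.001%. Its signal value was 253 in replicate 1, at rank 31 of 31595, and 173 in replicate 2, at rank 48 of 63150, with a summit gap of 11 bp. It was absent from the thresholded list of all 4 pairs. On the chromosome arms only 1 left-out peak was stronger, at 858 near the start of cbt.

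The Lk6 peak had no GATA core within 50 bp. The nearest core is 316.5 bp from the summit and the nearest WGATAR 379.5 bp. Summits without a core were not rare, at 27.9% of the conservative list and 29 of its 100 strongest, whereas 82.8% of the list had a WGATAR within 250 bp. The sequence holds 1 GTAAACA, the core of the site that FOXO proteins bind, 42 bp from the summit. That word was found within 50 bp of 2.94% of all thresholded summits, of 2.36% of windows 500 bp to either side, and of 7 of the 89 left-out summits on the arms. A second left-out Lk6 peak, 1055 bp downstream of the RB start, had a conservative signal value of 67.2, with 31.5 in replicate 1 and 40.1 in replicate 2. It too had no GATA core within 50 bp, but only just, since a WGATAR was centred 51.5 bp from its summit.

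With left-out peaks counted, 4 of the 7 genes were occupied, with 12 summits, where 19.3% of all genes were. In the length classes of those 4 genes the share was 35.2% at 10 to 20 kb and 41.2% at 20 kb or more. Left-out peaks were 5 of those 12 (41.7%) but 3.24% of all peaks at that score. The 5 are not separate events, since left-out peaks came in runs with no thresholded summit between them. They form a run of 3 in InR and a run of 2 in Lk6, among 45 runs on the arms. All 5 were on arm 3R, as were 51 of the 102 left-out peaks of the list. Per the deposited record the thresholded lists were made with 1 more input than the ranked lists, and the record does not say what it is. Its part in the absence of these peaks was not tested.

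**Figure D2:**
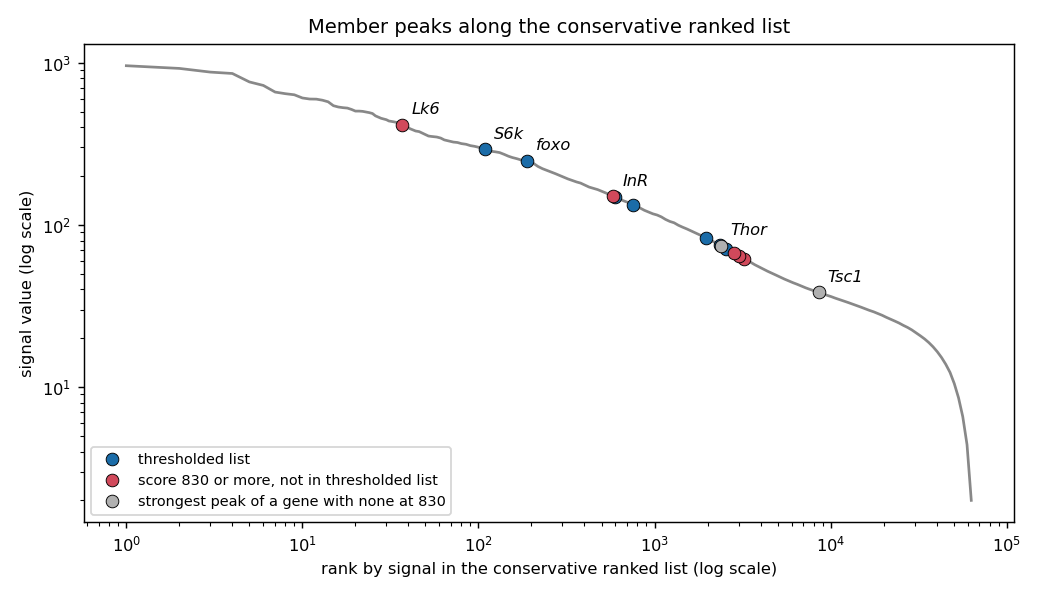
Signal value (log scale) against rank in the conservative ranked list (log scale); the line is the whole list of 62931 peaks and the points are the thresholded and left-out member peaks plus the strongest peak of Thor and Tsc1, with each gene's name at its strongest peak. The Lk6 point at 412 and rank 37 lies above S6k at 292 and foxo at 247, the InR points start at 150, and Tsc1 at 38.3 is far down the list.

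The replicates were compared at the thresholded and left-out member peaks. All 12 thresholded or left-out member peaks had a ranked peak in both replicates, as did 98.9% of the whole conservative list on the arms. The replicate 1 value was higher at 5 of the 12 and the replicate 2 value at 7. The ratio of replicate 1 to replicate 2 ran from 0.533 at the weaker S6k peak to 1.46 at the strong Lk6 peak and the InR peak 511 bp from RA. Over the 1411 peaks of the whole list matched to thresholded peaks of both replicates the median ratio was 1.07, with quartiles of 0.904 and 1.3. Among the 12 member peaks, only the stronger S6k peak (0.972) and the InR peak 632 bp upstream of RD (1.02) had a ratio between those quartiles. The match used for the 1411 peaks is stricter than the one used for the 12 member peaks, some of which were under the threshold in a replicate. Thus 5 of the 7 thresholded member peaks were thresholded in both replicates, 1 in replicate 1 alone and 1 in replicate 2 alone. Over the whole list the share thresholded in both was 46.5%, and 19.7% were in neither. The median gap between replicate summits at the 12 peaks was 16 bp, and over the 1411 more strictly matched peaks it was 25 bp. The 4 strongest signals in each replicate belonged to Lk6, S6k, foxo and InR in that order.

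**Figure D3:**
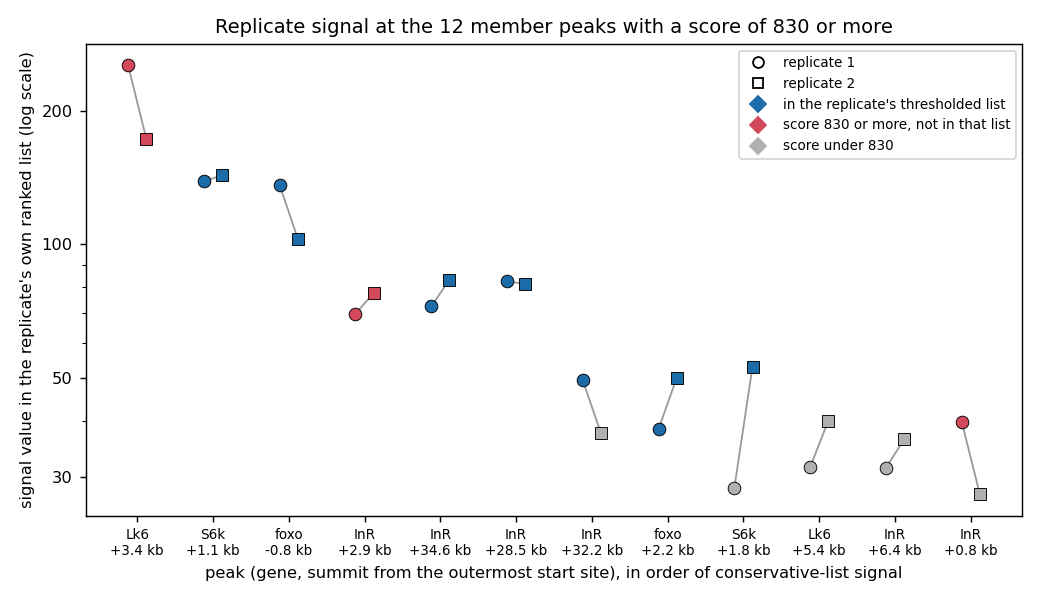
Signal value (log scale) of the 12 member peaks in replicate 1 (circles) and replicate 2 (squares), each from that replicate's own ranked list, in order of conservative signal value; colour shows whether the peak was thresholded, left out or under a score of 830 in that replicate. The pair farthest apart is the weaker S6k peak, at 28.3 and 53.1, and the Lk6 pair is highest at 253 and 173.

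The words under the summits were compared with the rest of the list. Over all 3032 thresholded summits on the arms, 72.1% had a GATA core within 50 bp and 46.0% a WGATAR, and in windows 500 bp to either side these shares were 48.1% and 20.6%. The members had 7 of 7 and 6 of 7, and in their own windows 500 bp to either side 4 of 14 and 2 of 14. With 7 summits the exact binomial 95% interval of the WGATAR share runs from 42.1% to 99.6% and holds the share of the whole list. The interval treats the 7 summits as independent, though they lie in 3 genes. At 2 or more WGATAR words there were 3 of 7 member summits, the stronger foxo peak, the weaker S6k peak and the strongest thresholded InR peak, beside 14.7% of the list. GATAAG was at 3 of 7 and at 28.9% of the list. GAGAG was at 3 of 7, beside 363 of all 3032 summits and 12.8% of the windows to either side. None of the 7 had the DRE word TATCGATA, which was at 1.32% of the list. The FOXO word GTAAACA was also at none of the 7 and at 2.94% of the list. The E-box CACGTG, at 0.989% of the list, and the word TATAAA, at 16.0%, were at none of the 7 either. All words were searched on both strands.

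Counting every candidate, 6 of the 7 windows held at least 1 ranked peak, as did 81.1% of all windows. The 92 ranked peaks came to 0.702 per kb beside 0.453 per kb over the arms. The arms also hold sequence outside gene windows, and the density over all gene windows was not measured, so the difference cannot be read as a trait of these genes. Of these 92, 7 were thresholded, 5 left out, 6 had an IDR between 1% and 5%, and 74 an IDR over 5%.

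Most WGATAR words in these genes were not near a thresholded or left-out summit. The 7 windows held 290 WGATAR, and 12 of them lay within 50 bp of a thresholded or left-out summit. The arms held 269186 WGATAR beside 3032 thresholded summits, so words far from a summit are general and not a trait of these genes. InR had 103 in its window with 6 near a summit, foxo 93 with 3, and S6k 25 with 3. Lk6 had 34, and none lay within 50 bp of its left-out summits, the nearest being centred 51.5 bp from the weaker one. Thor had 11, Tsc1 10 and chico 14, but these genes had no such summit for a word to lie near. By density Thor was highest at 3.46 per kb and foxo next at 2.82. By number of words the 4 genes with thresholded or left-out summits, which have the longest windows, came first. By density they did not, since Thor at 3.46 and chico at 2.13 per kb were both above the 1.63 per kb of S6k.

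**Figure D4:**
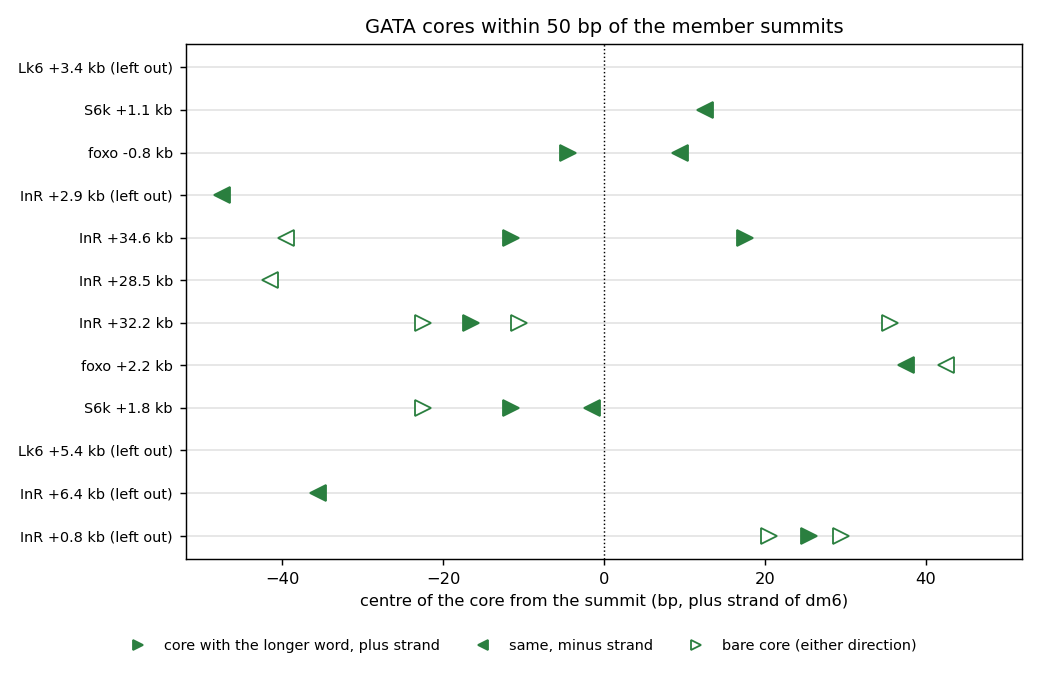
Position of each GATA core within 50 bp of the 12 thresholded or left-out member summits, in bp from the summit; each row is a peak, filled triangles are cores inside WGATAR, open triangles are other cores, and triangles point right for the plus strand. The strongest foxo row has a facing pair of filled triangles at -4.5 and 9.5 bp, and both Lk6 rows are empty.

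Of 46 other genes of the pathway that could be matched to the annotation, 10 (21.7%) held a thresholded summit, close to the 19.0% of all genes. By branch, 1 of 10 ligands and ligand binders, 2 of 8 receptor-proximal genes, 4 of 15 genes of the TOR branch, 0 of 4 translation genes and 3 of 9 nuclear and energy genes were occupied. By window length, 2 of 17 were occupied under 5 kb, 1 of 14 at 5 to 10 kb, 3 of 8 at 10 to 20 kb and 4 of 7 at 20 kb or more. The strongest was Sesn, the stress-induced TOR inhibitor, with 4 summits and a top signal value of 314, which was 163 in replicate 1 and 146 in replicate 2. REPTOR, a transcription factor held in check by TOR, had 4 summits and a top signal value of 261, with 142 in replicate 1 and 107 in replicate 2. RagC-D, a GTPase of the amino acid branch, had 2 summits and a top value of 161, and that peak had 95.5 in replicate 1 and no ranked match in replicate 2, whose own list had 1 thresholded summit elsewhere in the window, at 46.0. HDAC4, a deacetylase that acts on foxo, had 1 summit at 135, with 87.0 in replicate 1 and 49.0 in replicate 2, the latter not thresholded. None of the insulin-like peptide genes was occupied, and the single occupied gene of the ligand branch was ImpL2, which encodes a binder of those peptides and is named here after its value was seen.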

How the data were processed

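ChIP-seq for GATAe-eGFP was deposited as peak lists for 2 replicates of whole embryos, on dm6 per the labels. Aligner, caller and settings were not given in the sources used here. The deposited columns used were the authors' score, which equals a fixed multiple of the logarithm of the IDR with a ceiling of 1000 (checked in the 4 ranked lists), the authors' signal value, the deposited −log10 of the IDR in the ranked lists, and the deposited offset of the summit from the peak start. The 4 unnamed per-sample columns of the series-level ranked lists were not used. Read depth is unknown.

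Summits were assigned to gene windows from the Ensembl 115 annotation, and bases were read from RefSeq's dm6 sequence, in which 99.9% of annotated start codons read ATG. A conservative-list peak was matched to a replicate peak where they shared at least 1 bp. The GATA words and 5 others (the DRE, FOXO, E-box, GAGA and TATA words spelled out above) were counted on both strands, wholly within 50 bases of each summit. Window assignment and word counting were tested on simulated data, in which 500 of 500 placed words and 60 of 60 placed summits were found. Python 3.11.15, numpy 2.4.6, pandas 2.3.3, scipy 1.17.1 and matplotlib 3.10.9 were used. Shares carry exact binomial (Clopper-Pearson) intervals, which cover counting error only.

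With 1 group there was no test between conditions, and all results are descriptions. The genes and the list of 47 further pathway genes, of which 46 were matched (1 by an older symbol), were chosen with earlier results of these data known. Named genes are all members, genes whose start is nearest to a summit or whose body or window holds it, and the 4 further pathway genes with the strongest peak. The alternatives were other lists, thresholds, gene windows, overlaps and words. Counting the left-out peaks was added after the data were seen.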

Additional observations from a re-analysis of the deposited data

Results flagged for a closer look

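The left-out peaks are outside the thresholded lists on which the main counts rest, and 5 of them are in member windows. The Lk6 peak at chr3R:11760929-11761155 had a signal value of 412, and the Lk6 peak with its summit at position 11759024 had 67.2. In InR, the peak with its summit at position 21616442 had 150, that at 21612928 had 64.6 and that at 21618525 had 61.9. Each had an IDR under 1% in the conservative ranked list. No control sample is among the files, so these values were compared with the score limit only, and why they are absent from the thresholded lists was not tested.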

How the results depend on the processing

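The 3 occupied members were InR, foxo and S6k in the conservative, pooled and both replicate lists. The ranked list at an IDR of 5%, which also brings back the left-out peaks, gave 5 members, 18 member summits and 16 other pathway genes. Keeping peaks above the list's median signal left 4 member summits and 6 other pathway genes. Counting only summits within 1 kb of a start site of the gene left 2 members, InR and foxo, and 2 member summits. Counting left-out peaks, an alternative chosen after seeing the data, gave 4 members and 12 member summits at 1%. GATAAG in place of GATA lowered the share of member summits with the word from 100% to 42.9%. With 1 replicate's own list, member genes stayed at 3, member summits were 6 to 7, other pathway genes 6 to 9, and the share with a GATA core 83.3% to 100%. The 6 pathway genes were those of replicate 2's list, so without replicate 1, and both the 6 member summits and the 83.3% came from replicate 1's list. The count of member peaks thresholded in both replicates was 5 under both other overlap rules and 7 with any ranked peak. No paired analysis was possible because there is 1 group. The unknown depth and the 2 replicates limit what a missing peak can show.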
